A study of Mus musculus with 12 samples.

Results

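The genes described here are 10 ATP-binding cassette (ABC) efflux pumps of hepatocytes: Abcb1a, Abcb1b, Abcb4, Abcc2, Abcc3, Abcc4, Abcc6, Abcg2, Abcg5 and Abcg8. They were listed by name and taken from the array through probe sets whose annotation names exactly 1 gene symbol, with the probe set of highest mean signal standing for a gene that has several. All 10 had 1 such probe set, out of 30063 genes with one, and all 10 were among the 19985 genes tested.

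ABC pumps use the energy of ATP to move substrates out of the cell against a gradient. In a polarised hepatocyte, one set lies in the canalicular membrane and discharges drugs, conjugates, phospholipid and sterols into bile, while another set lies in the basolateral, sinusoidal membrane and returns conjugates to blood. Nuclear receptors that sense xenobiotics, bile acids and oxysterols, and the stress factor NRF2, are known regulators of their genes.

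The study measured total liver RNA of 12 mice on Affymetrix whole-transcript arrays, 1 array per mouse; the animals were 3 months old and their strain was C57BL/6J -Oca2p-un/J. The citrate group (4 mice) was gavaged with 20 nm silver particles coated with citrate, at 4 mg/kg once a day for 7 days. The PVP group (4 mice) received the same schedule of 20 nm silver particles coated with polyvinylpyrrolidone (PVP), a synthetic polymer, and the control group (4 mice) received water. Livers were taken 24 h after the last dose, and each group held 2 females and 2 males. The strain carries an allele of Oca2, the pink-eyed dilution gene of pigmentation, in all 3 groups. No group received a coating without silver, so an effect of silver and an effect of its coating cannot be told apart against water. Values are log2 signals as deposited, so a difference of 1 is a doubling of signal; signals of different genes come from different probes and are not compared with each other.

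The arrays correlated with each other at r = 0.963 to 0.988 over all probe sets, and no pair held identical values. Separation of exon from intron control probes, an index of array quality given as the area under the ROC curve, was 0.802 ± 0.0198 in PVP arrays, 0.820 ± 0.00624 in citrate arrays and 0.824 ± 0.0160 in control arrays (SD, n = 4 each), and the exact two-sided permutation p was 0.714 for citrate against control and 0.171 for PVP against control. The lowest areas were 0.778 in PVP replicate 1, a female, and 0.794 in PVP replicate 4, a male. Of the hepatocyte markers, 8 had a probe set of their own, none below a log2 signal of 11.88 on any array. Of these, Alb and Ttr were at the ceiling of the table on all 12 arrays and Apoa1 held 1 value throughout, so they cannot show a difference. Cps1 and Tat were at the ceiling on 11 of the 12 arrays, so a difference in them would be cut off. The mean log2 signal of the other 3, Apoc3, F2 and Asgr1, was 14.40 to 14.80 in citrate livers, 14.36 to 14.85 in PVP livers and 14.59 to 14.64 in control livers. Markers of cholangiocytes, which also carry ABC pumps, averaged 4.32 to 4.51 in citrate livers, 4.27 to 4.76 in PVP livers and 4.31 to 4.50 in control livers, close to the array medians of 4.13 to 4.40. Of the pumps, Abcb1b and Abcc4 were the dimmest, brighter than 60.1% and 68.2% of the intron control probe sets, whereas the other 8 were brighter than at least 89.7% of them. In whole liver, fewer cells of a type and less RNA per cell cannot be told apart.

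No pump gene changed with either coating by limma at an adjusted p of 0.05. With citrate against control, 0 of 10 passed, where 0.005% of all tested genes did. With PVP against control, 0 of 10 passed, where 0.04% of all tested genes did. At an unadjusted p under 0.05, 2 pumps were lower with citrate (Abcc3 and Abcc6; 3.82% of all tested genes) and 1 was lower with PVP (Abcc6; 12.2% of all tested genes). These unadjusted counts hang on single arrays: with 1 array left out at a time, 0 to 2 pumps passed with each coating. Log2 fold changes lay below 0 for 8 of 10 pumps with citrate, with a median of -0.15 where 49.6% of all tested genes lay below 0, and for 9 of 10 with PVP, with a median of -0.25 where 50.5% did. With the quality index as a covariate, and likewise without the 2 arrays of lowest index, 7 of 10 lay below 0 with PVP. The 2 comparisons share their control mice, and the pumps share arrays, so these counts are descriptions. Between females and males, 2 of 10 differed, Abcb1a being higher and Abcg2 lower in females.

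**Figure D1:**
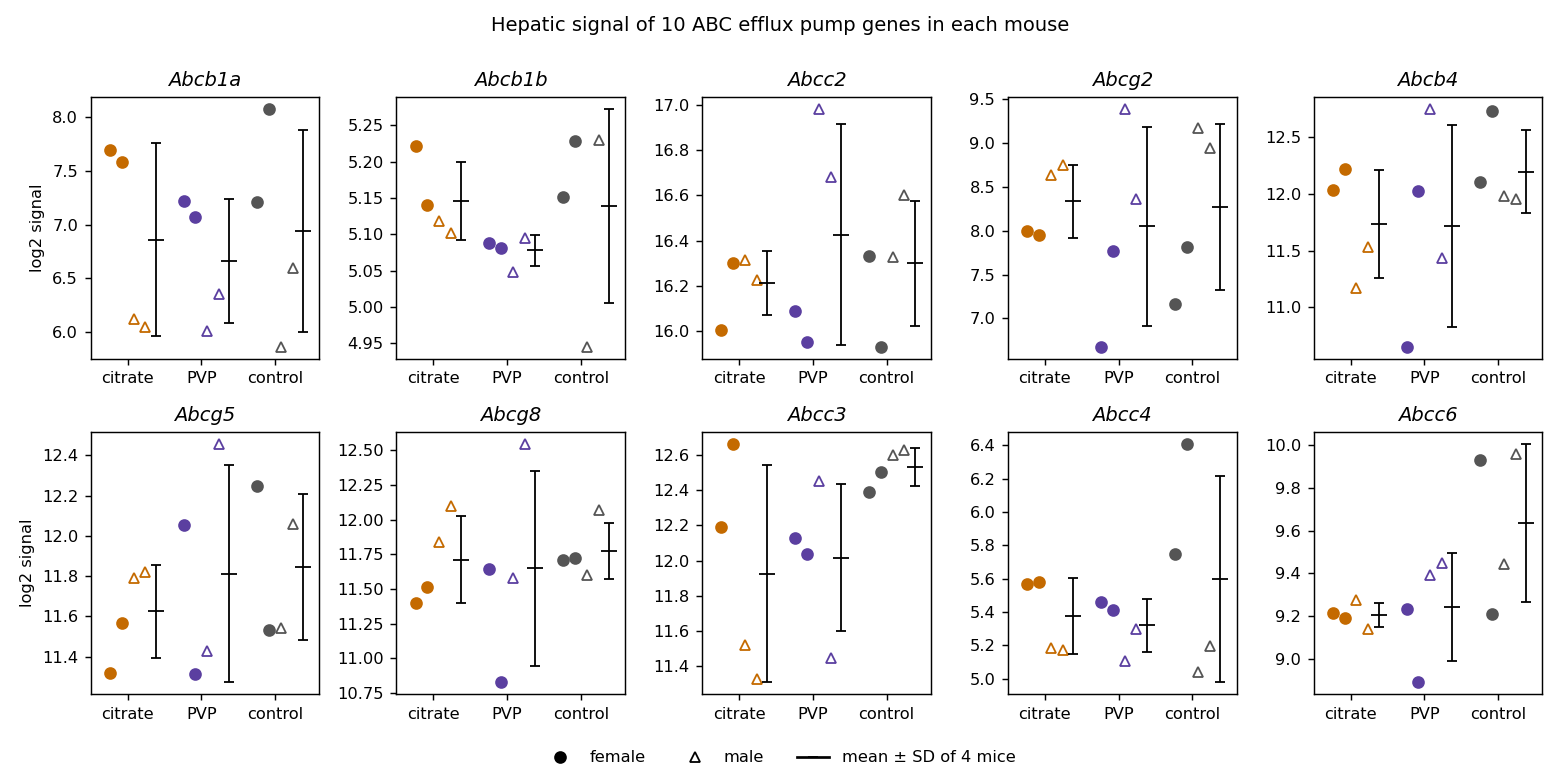
Log2 signal of the 10 pump genes (y axis, a scale of its own in each panel) in the citrate, PVP and control groups; filled circles are females, open triangles males, and the bars are the mean ± SD of 4 mice. For Abcb1a the 6 females all lie above the 6 males and for Abcg2 all below them, and Abcc3 is at 12.39 to 12.63 in the 4 controls with 11.33 and 11.52 in the citrate males.

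Among the canalicular drug pumps, Abcb1a and Abcb1b encode the 2 rodent forms of P-glycoprotein, which exports lipophilic drugs and whose human counterpart is the single gene ABCB1. They lie near each other on chromosome 5 beside Abcb4. Their promoter windows are shown because the 2 signals ran in parallel across livers of one sex, while only that of Abcb1a was called for sex. Abcb1b was brighter than only 60.1% of the intron control probe sets, and whether so low a signal hides a sex difference was not tested. The windows hold 250 bases before and 50 bases after the start site and are from RefSeq on GRCm38.p6. They are written 5′ to 3′ on the plus strand, with motif matches in capitals.
Abcb1a, chr5:8566841-8567140: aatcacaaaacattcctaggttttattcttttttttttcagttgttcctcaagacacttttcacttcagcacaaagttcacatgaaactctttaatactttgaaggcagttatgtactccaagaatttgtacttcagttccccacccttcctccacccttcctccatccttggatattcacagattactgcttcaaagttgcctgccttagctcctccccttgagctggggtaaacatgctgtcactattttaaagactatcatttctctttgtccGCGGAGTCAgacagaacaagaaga
Abcb1b, chr5:8797897-8798196: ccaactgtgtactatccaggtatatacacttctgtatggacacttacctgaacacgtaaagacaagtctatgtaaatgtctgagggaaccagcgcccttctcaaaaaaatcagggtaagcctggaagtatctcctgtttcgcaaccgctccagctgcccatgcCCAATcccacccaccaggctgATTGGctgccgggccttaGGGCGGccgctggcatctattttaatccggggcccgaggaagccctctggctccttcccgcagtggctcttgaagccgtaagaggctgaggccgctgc
The motifs searched, on both strands, were the GC box GGGCGG (in 35.66% of 32851 RefSeq promoter windows of the same length), the CCAAT box CCAAT (37.41%), the TATA box TATAAA (13.62%), the GATA site GATAAG (7.443%), the antioxidant response element core TGACNNNGC (12.39%) and the STAT site TTCNNNGAA (8.298%). The Abcb1a window, of 40.3% G and C, held 1 match, to the antioxidant response element core, which begins 27 bases after the start site. The Abcb1b window, of 55.0% G and C, held a GC box at -48 and CCAAT boxes at -87 and -66. No 2 matches overlapped. A match in such a window is a description of letters only.

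Abcb1a measured 7.69 and 7.58 in citrate females, 7.22 and 7.07 in PVP females, and 7.21 and 8.08 in control females. In males it measured 6.12 and 6.05 with citrate, 6.01 and 6.35 with PVP, and 5.87 and 6.60 in controls. Within each sex the exposed and control ranges overlapped, and every female lay above every male. The log2 fold change was -0.08 (SE 0.22, 95% interval -0.56 to 0.40) for citrate and -0.28 (SE 0.22, -0.76 to 0.21) for PVP by limma, with adjusted p of 1 and 0.474. Abcb1b was flat by comparison, at 5.10 to 5.22 in citrate livers, 5.05 to 5.10 in PVP livers and 4.95 to 5.23 in control livers. Its PVP values all lay below its citrate values, a separation that 4.84% of all tested genes show in that direction, with a log2 difference, PVP minus citrate, of -0.07 that limma did not call (adjusted p = 0.654). Its residual SD of 0.08 was at the 8.51 percentile of all tested genes.

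Abcc2 encodes MRP2, the canalicular exporter of glucuronide and glutathione conjugates, among them bilirubin glucuronides. It measured 16.01 to 16.32 in citrate livers, 15.95 to 16.98 in PVP livers and 15.93 to 16.60 in control livers, and none reached the ceiling of the table. The 2 PVP males, at 16.98 and 16.68, were the highest of the 12 livers, above control males at 16.33 and 16.60. How many of all tested genes separate 2 mice from 2 in this way was not counted. Over both sexes the log2 fold change was -0.09 (SE 0.16) for citrate and 0.13 (SE 0.16) for PVP, neither called by limma (adjusted p of 1 and 0.662).

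Abcg2 encodes BCRP, a canalicular exporter of sulfate conjugates, urate and drugs; the annotation of its probe set lists a second gene identifier beside it. Whether its probes also measure that gene was not tested, so the signal and its sex difference may not be of Abcg2 alone. In females it measured 8.0 and 7.95 with citrate, 6.68 and 7.77 with PVP, and 7.16 and 7.81 in controls. In males it measured 8.64 and 8.75 with citrate, 9.40 and 8.36 with PVP, and 9.17 and 8.94 in controls. Citrate females thus lay above control females while citrate males lay below control males, and PVP values overlapped the controls in both sexes. Each of these sets 2 mice against 2. How many of all tested genes separate in this way was not counted, so these positions are descriptions. The log2 fold change was 0.06 (SE 0.31) for citrate and -0.22 (SE 0.31) for PVP, with adjusted p of 1 and 0.698 by limma. PVP replicate 1, the array of lowest quality index, held the lowest Abcg2 value of all 12; without the 2 arrays of lowest index the PVP value was 0.31.

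Of the lipid pumps, Abcb4 encodes the phosphatidylcholine floppase MDR2, which supplies phospholipid to bile. It measured 12.03, 12.22, 11.17 and 11.53 in citrate livers, 10.65, 12.03, 12.75 and 11.44 in PVP livers, and 11.99, 12.11, 11.96 and 12.74 in control livers. Both exposed groups ran lower than the controls at their low end and overlapped them at their high end, and the residual SD of 0.65 was at the 97.6 percentile of all tested genes. The log2 fold change was -0.46 (SE 0.41, 95% interval -1.37 to 0.46) for citrate and -0.48 (SE 0.41, -1.39 to 0.44) for PVP, with adjusted p of 0.978 and 0.514 by limma. The lowest value, 10.65, was again that of PVP replicate 1. With the quality index as a covariate the PVP value was 0.23, and without the 2 arrays of lowest index it was 0.20, so its direction turned. Single arrays moved both values: PVP was at -0.05 without PVP replicate 1 and -0.90 without PVP replicate 3, and citrate was at -0.61 without citrate replicate 2, -0.28 without citrate replicate 3 and -0.29 without control replicate 4.

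Abcg5 and Abcg8 encode the partners of the sterolin heterodimer that pumps cholesterol and plant sterols into bile. The 2 genes lie head to head on chromosome 17 in RefSeq, with start sites 110 bases apart, and their promoter windows share 209 bases on opposite strands. RefSeq also gives Abcg8 another window, with its start site at 84676302, which lies outside this region and held no motif match. The Abcg8 window that overlaps that of Abcg5 is shown, on the plus strand. It takes in the start site of Abcg5 on the other strand and so holds the region the pair shares.
Abcg8, chr17:84682871-84683170: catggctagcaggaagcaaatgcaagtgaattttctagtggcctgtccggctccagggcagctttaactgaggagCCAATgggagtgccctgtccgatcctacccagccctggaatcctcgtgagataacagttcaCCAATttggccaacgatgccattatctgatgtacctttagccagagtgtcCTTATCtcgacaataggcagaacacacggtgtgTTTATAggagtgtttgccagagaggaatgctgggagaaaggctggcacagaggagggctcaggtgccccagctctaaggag
Its capitals mark CCAAT boxes at -175 and -114, a GATA site at -64 and a TATA box at -31, counted from the Abcg8 start site. The GATA and TATA matches read CTTATC and TTTATA on the strand printed, so GATAAG and TATAAA lie on the Abcg5 strand. Counted from the Abcg5 start site on the other strand, the TATA box begins at -84, the GATA site at -51 and 1 CCAAT box at 1.

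Abcg5 measured 11.32, 11.57, 11.79 and 11.82 in citrate livers, 12.05, 11.31, 11.43 and 12.46 in PVP livers, and 11.54, 12.25, 12.06 and 11.53 in control livers. Abcg8 measured 11.40, 11.51, 11.84 and 12.10 in citrate livers, 11.65, 10.83, 11.58 and 12.55 in PVP livers, and 11.60, 11.71, 12.07 and 11.73 in control livers. The PVP group spread widest for both genes, and PVP replicate 4 was the highest of the 12 livers for both. Log2 fold changes were -0.22 (SE 0.27) with citrate and -0.03 (SE 0.27) with PVP for Abcg5, and -0.06 (SE 0.25) with citrate and -0.13 (SE 0.25) with PVP for Abcg8. By limma their adjusted p was 1 with citrate and 0.797 or more with PVP. The citrate value of Abcg5 was -0.036 without control replicate 2, -0.37 without control replicate 1 and -0.14 without citrate replicate 1.

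The sinusoidal pumps are Abcc3 (MRP3), which returns glucuronides and bile acids to blood, Abcc4 (MRP4), which exports nucleotides, sulfate conjugates and bile acids, and Abcc6 (MRP6), on which release of ATP from liver depends. All 3 had a log2 fold change below 0 with both coatings, with a median of -0.43 for citrate and -0.39 for PVP; none passed the test.

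Abcc3 in females measured 12.19 and 12.66 with citrate, 12.13 and 12.04 with PVP, and 12.39 and 12.50 in controls. In males it measured 11.52 and 11.33 with citrate, 12.45 and 11.45 with PVP, and 12.60 and 12.63 in controls. The 4 controls were tightly grouped, and all exposed livers lay below their range except 1 citrate female, at 12.66, and 1 PVP male, at 12.45. The log2 fold change was -0.60 (SE 0.27, 95% interval -1.20 to -0.0053) for citrate and -0.51 (SE 0.27, -1.11 to 0.085) for PVP. By limma the adjusted p was 0.754 and 0.303, and the unadjusted p was 0.0483 and 0.0852. Leaving out 1 array at a time gave log2 values of -0.82 to -0.44 for citrate and -0.74 to -0.36 for PVP.

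Abcc6 measured 9.22, 9.19, 9.28 and 9.14 in citrate livers, 9.23, 8.89, 9.39 and 9.45 in PVP livers, and 9.44, 9.93, 9.96 and 9.21 in control livers. Control replicate 4, at 9.21, fell among the exposed livers, so the groups overlapped. The log2 fold change was -0.43 (SE 0.18, 95% interval -0.82 to -0.04) for citrate and -0.39 (SE 0.18, -0.79 to -0.00039) for PVP, with adjusted p of 0.704 and 0.246 and unadjusted p of 0.0349 and 0.0498 by limma. Leaving out 1 array at a time gave log2 values of -0.56 to -0.29 for citrate and -0.52 to -0.25 for PVP.

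Abcc4 in females measured 5.57 and 5.58 with citrate, 5.46 and 5.41 with PVP, and 5.75 and 6.41 in controls. In males it measured 5.18 and 5.17 with citrate, 5.11 and 5.30 with PVP, and 5.04 and 5.20 in controls. All 4 exposed females lay below both control females, and the males overlapped. With 2 mice per group and sex, and no count of how many tested genes separate in this way, this is a description. Over both sexes the log2 fold change was -0.22 (SE 0.17) for citrate and -0.28 (SE 0.17) for PVP, with adjusted p of 0.946 and 0.354 by limma. Both values moved with control replicate 4: without it they were -0.02 for citrate and -0.07 for PVP. The Abcc4 signal was brighter than only 68.2% of the intron control probe sets.

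**Figure D2:**
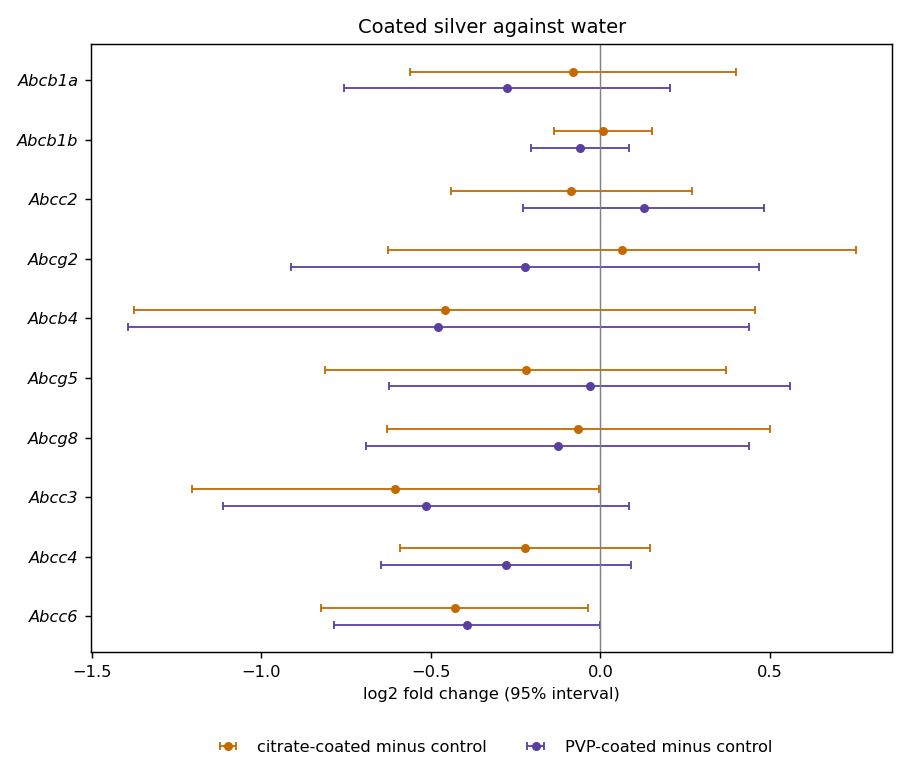
Log2 fold change against control (x axis) with its 95% interval for each pump gene, for citrate (upper of each pair) and PVP (lower), from the limma fit to 12 mice. The sinusoidal pumps Abcc3, Abcc4 and Abcc6 lie left of 0 with both coatings, between -0.60 and -0.22, and the intervals of most genes span 0.

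With both coatings averaged against control, 0 of 10 pumps passed, where 0.035% of all tested genes did. By limma Abcc6 was at -0.41 on the log2 scale (SE 0.15, adjusted p = 0.334) and Abcc3 at -0.56 (SE 0.23, adjusted p = 0.374). The direct comparison of PVP with citrate called 0 of 10 pumps by limma, and 0% of all tested genes. At an unadjusted p under 0.05 that comparison held 0 pumps, against 14% of all tested genes. Its log2 differences ran from -0.29 (Abcg2, SE 0.31) to 0.21 (Abcc2, SE 0.16). With the quality index as a covariate they spanned -0.31 for Abcg8 and 0.57 for Abcb4, and without the 2 arrays of lowest index -0.51 for Abcg8 and 0.65 for Abcb4.

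The sexes were then compared over the 6 females and 6 males. By limma 2 of 10 pumps differed, where 2.18% of all tested genes did: 1 pump was higher in females, where 0.931% of all tested genes were, and 1 was lower, where 1.25% were. Abcb1a averaged 7.47 ± 0.38 in females and 6.17 ± 0.27 in males (SD, n = 6 each), a log2 fold change of 1.31 (SE 0.18, 95% interval 0.92 to 1.70), or 2.48-fold, with an adjusted p of 0.00359. Abcg2 averaged 7.56 ± 0.53 in females and 8.88 ± 0.37 in males, a log2 fold change of -1.31 (SE 0.25, -1.88 to -0.75), or 0.402 times the male level, with an adjusted p of 0.0265. In each of the 3 groups both females lay above both males for Abcb1a and below both males for Abcg2. Of all tested genes, 0.906% had every female above every male and 1.38% every female below every male. The Abcg2 call rests on individual mice, since leaving out control replicate 1, control replicate 3, control replicate 4 or citrate replicate 4 gave an adjusted p of 0.0508 to 0.0678 with log2 values of -1.25 to -1.37.

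Abcc4 ran higher in females, at 5.41 to 6.41 in females and 5.04 to 5.30 in males without overlap. Its log2 fold change of 0.53 (SE 0.14) had an adjusted p of 0.0819 by limma, and of 0.0308 without control replicate 4. The Abcc4 signal was brighter than only 68.2% of the intron control probe sets. Abcc2 (log2 fold change -0.42, SE 0.13, adjusted p = 0.146) and Abcg8 (-0.48, SE 0.21, adjusted p = 0.302) ran lower in females and did not pass. The other 5 pumps had adjusted p of 0.546 or more. Abcb1b, the paralog of Abcb1a, differed by 0.06 (SE 0.05, 95% interval -0.06 to 0.18). Its signal was brighter than only 60.1% of the intron control probe sets, and whether this hides a sex difference was not tested.

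Markers of other liver cells were read beside the sex comparison. The mean log2 signal of 8 Kupffer cell markers was 7.89 to 10.28 in females and 8.07 to 8.44 in males, and that of 7 sinusoidal endothelial markers was 8.12 to 8.93 in females and 8.22 to 8.69 in males. For 7 stellate cell markers it was 7.75 to 8.65 in females and 7.46 to 8.27 in males. None of these 22 genes passed for sex at an adjusted p of 0.05 by limma. Log2 fold changes lay above 0 for 8 of 8 Kupffer cell markers (median 0.72), 6 of 7 endothelial markers (median 0.23) and 7 of 7 stellate cell markers (median 0.26), whereas 57.1% of all tested genes lay below 0. At an unadjusted p under 0.05, 5 Kupffer, 2 endothelial and 3 stellate cell markers were higher in females, as were 6.36% of all tested genes. Their part in the sex differences of the pumps was not tested.

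**Figure D3:**
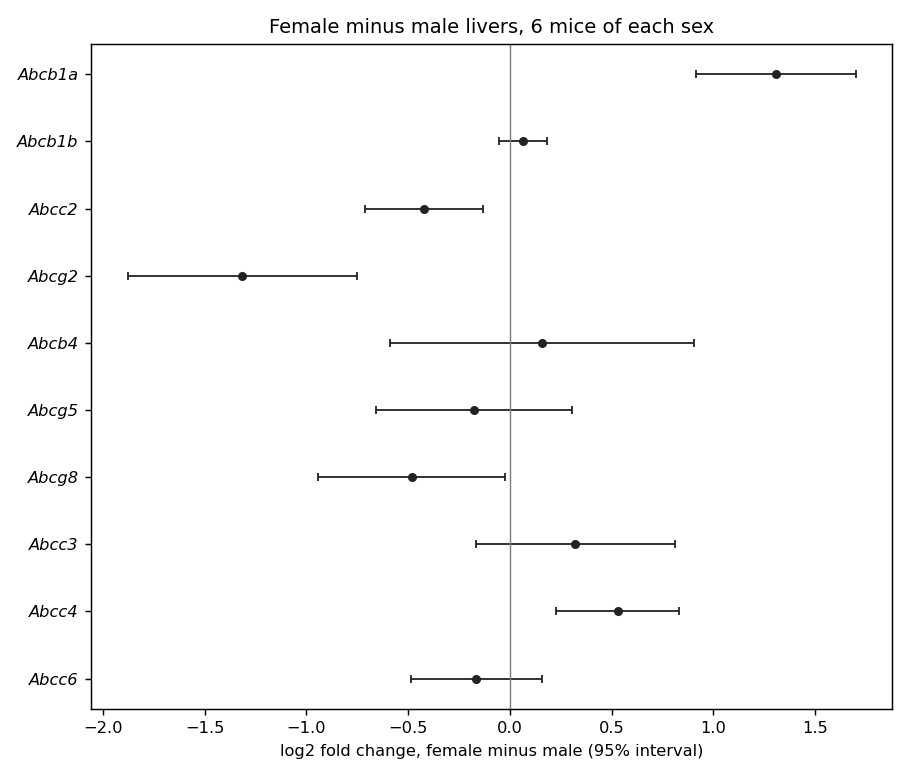
Female minus male log2 fold change (x axis) with its 95% interval for each pump gene, from the limma fit to 6 females and 6 males. Abcb1a stands at 1.31 and Abcg2 at -1.31, and the interval of Abcc4 (0.23 to 0.83) also lies right of 0 although its adjusted p was 0.0819.

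Effects of the coatings within each sex rest on 2 exposed and 2 control mice. In males, Abcc3 was 0.438 times the control level with citrate (log2 -1.19, SE 0.31, unadjusted p = 0.00425, adjusted p = 0.848 by limma), and in females the log2 value was -0.02 (SE 0.31). The effect of citrate on Abcc3 in females minus that in males was 1.17 (SE 0.43, unadjusted p = 0.0258, adjusted p = 1). With PVP, Abcc3 was at -0.36 (SE 0.31) in females and -0.67 (SE 0.31) in males, and the difference in effect was 0.30 (SE 0.43, unadjusted p = 0.505, adjusted p = 1). The PVP value in males was -0.16 without PVP replicate 4 and -1.17 without PVP replicate 3. For Abcc4 the order was opposite: in females the log2 value was -0.50 (SE 0.19, unadjusted p = 0.0254, adjusted p = 1) with citrate and -0.64 (SE 0.19, unadjusted p = 0.00823, adjusted p = 0.282) with PVP, and in males it was 0.06 with citrate and 0.08 with PVP. Its female minus male difference in effect was -0.56 (SE 0.26, unadjusted p = 0.0636) for citrate and -0.72 (SE 0.26, unadjusted p = 0.0244) for PVP, each with an adjusted p of 1. The Abcc4 signal was brighter than only 68.2% of the intron control probe sets, and whether so low a signal hides an effect in males was not tested. These Abcc4 values rest on 2 control females that lie apart, at 5.75 and 6.41. Without control replicate 4 the values in females were -0.17 with citrate and -0.31 with PVP (adjusted p of 0.862 and 0.622 by limma), and the differences in effect were -0.23 and -0.39. Without control replicate 2 they were -0.83 with citrate and -0.97 with PVP (adjusted p of 0.183 and 0.0395 by limma), and the differences in effect were -0.89 and -1.05. By limma no gene passed either test of a difference between the sexes, so 0% of all tested genes were called in both; at an unadjusted p under 0.05, 1 pump of 10 and 2.45% of all tested genes did with citrate, and 1 pump of 10 and 3.62% with PVP.

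**Figure D4:**
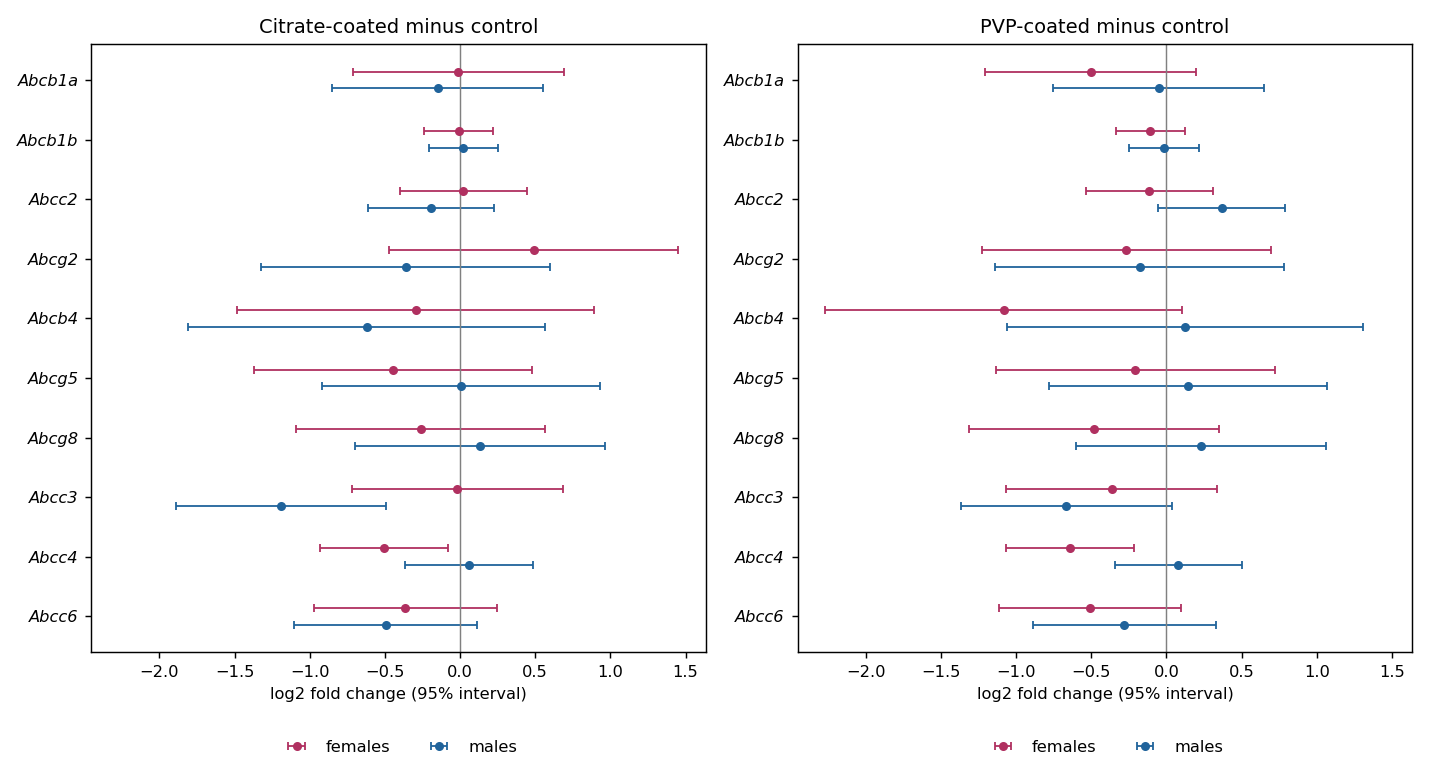
Log2 fold change against control (x axis) with its 95% interval for citrate (left) and PVP (right), in females (upper of each pair) and males (lower), with 2 mice per group and sex. Abcc3 with citrate is at -1.19 in males and -0.02 in females, while Abcc4 is at -0.50 with citrate and -0.64 with PVP in females, values that were -0.17 and -0.31 without control replicate 4, and near 0 in males. The Abcc4 signal was brighter than only 68.2% of the intron control probe sets.

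Neighbouring genes were compared across livers in 4 pairs, with p-values adjusted over the 4. Abcg5 and Abcg8 correlated at r = 0.768 over the 12 livers (permutation p = 0.00223, adjusted 0.00892) and rho = 0.776 (permutation p = 0.00433, adjusted 0.0173). Without PVP replicate 4 and control replicate 2, the livers farthest from the Abcg5 median, r was 0.728. In the 6 females r was 0.636 (exact permutation p = 0.156, adjusted 0.193) and in the 6 males 0.966 (exact permutation p = 0.00556, adjusted 0.0222).

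Abcb1a falls into separate clusters by sex, so its relation to Abcb1b is given within sex. In females r was 0.876 (exact permutation p = 0.0194, adjusted 0.0778) with rho = 0.83, and in males r was 0.880 (exact permutation p = 0.0222, adjusted 0.0444) with rho = 0.83. In these 6 males the span of Abcb1b was 4.95 to 5.23. Both ends of that span were control males, which were also the lowest and highest males for Abcb1a. Over all 12 livers r was 0.672, and 0.456 without control replicates 4 and 1, the livers farthest from the Abcb1a median. Abcb1b was brighter than only 60.1% of the intron control probe sets. Abcb4, the third gene of the cluster, gave r of 0.593 with Abcb1a and 0.639 with Abcb1b in females, and of -0.187 and -0.262 in males, with exact permutation p adjusted to 0.193 in females and 0.703 in males. The genes of each pair share arrays and normalization.

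**Figure D5:**
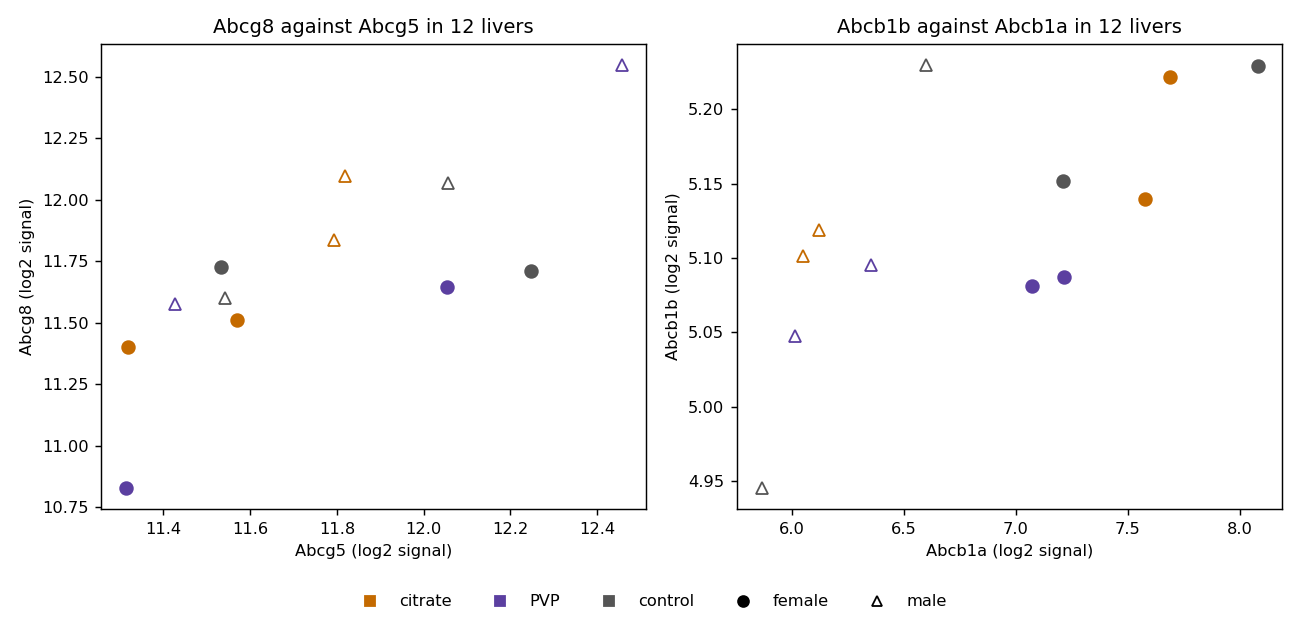
Log2 signal of Abcg8 against Abcg5 (left) and of Abcb1b against Abcb1a (right) in the 12 livers, coloured by group, with filled circles for females and open triangles for males. The Abcg5 and Abcg8 points run upward together (r = 0.768), and Abcb1b rises with Abcb1a inside each sex (r = 0.876 in females and 0.880 in males) while the sexes sit apart along the Abcb1a axis. In the right panel the lowest and highest males on both axes are controls.

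For each pump, the other named gene with the most similar profile was found over the 12 arrays after the mean of each group and sex was removed, among 14165 genes and with 6 residual degrees of freedom. Abcb4 paired with Cox6a1 at r = 0.998, Abcc3 with Rabac1 at 0.992, Abcg2 with Prep at 0.992, Abcg5 with Pde4c at 0.990 and Abcc6 with Mir450-1 at 0.990. Abcg8 paired with Pcolce at 0.988, Abcb1b with Nav1 at 0.985, Abcb1a with Slc2a3 at 0.980, Abcc4 with Tmem184a at 0.980 and Abcc2 with Mdm4-ps at 0.959. With so few degrees of freedom and so many genes these are descriptions.

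The regulators of pump genes were read on the same arrays, and none of 15 passed with either coating. Nfe2l2, which encodes NRF2, was at -0.73 on the log2 scale (SE 0.20, adjusted p = 0.399 by limma) with citrate and at -0.62 (SE 0.20, adjusted p = 0.158) with PVP. The xenobiotic receptors gave 0.28 (SE 0.20) with citrate and 0.09 (SE 0.20) with PVP for Nr1i2 (PXR), and -0.46 (SE 0.74) with citrate and -0.15 (SE 0.74) with PVP for Nr1i3 (CAR). For Nr1h3 (LXR alpha) the value was -0.03 with citrate and -0.14 with PVP (SE 0.09 each), and for Nr1h4 (FXR), the bile acid receptor, it was -0.15 with citrate and 0.04 with PVP (SE 0.30 each). Nr5a2 had -0.27 with citrate (adjusted p = 0.590), and Keap1, which holds NRF2 in check, had -0.21 with PVP (adjusted p = 0.213).

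Target genes of these regulators gave no call with either coating. Of 12 tested NRF2 targets, 10 lay below 0 with citrate (median log2 fold change -0.30) and 10 with PVP (median -0.73), against medians of 0.00 over all tested genes. Gstm3 had -1.58 (SE 0.27, adjusted p = 0.0629 by limma) and Gsta4 -1.14 (SE 0.29, adjusted p = 0.119) with PVP, and Nqo1, a quinone reductase, had -0.52 (SE 0.19, adjusted p = 0.590) and Gsta2 -1.15 (SE 0.58, adjusted p = 0.822) with citrate. Of 10 tested PXR and CAR targets, 4 lay below 0 and 5 above with citrate, and 7 below and 2 above with PVP. The rest stood at exactly 0. Cyp3a25 had -0.70 and Alas1 0.93 with citrate (adjusted p of 0.590 and 0.83), and Cyp2c55 had -0.89 and Cyp3a13 1.15 with PVP (adjusted p of 0.116 and 0.126). Of 8 tested LXR targets beside Abcg5 and Abcg8, 4 lay below 0 with citrate and 8 with PVP, where 49.6% and 50.5% of all tested genes did. Among them Pltp, the phospholipid transfer protein, had -0.82 (SE 0.32) with citrate and -1.01 (SE 0.32) with PVP, with adjusted p of 0.650 and 0.159. Abca1 had 0.26 with citrate (adjusted p = 0.952) and Lpcat3 -0.50 with PVP (adjusted p = 0.177).

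Other transporters gave no call with either coating. Of 32 other ABC genes tested, 17 lay below 0 with citrate and 20 with PVP; Abcb11, the bile salt export pump, stood -0.88 on the log2 scale from control (SE 0.24, adjusted p = 0.128 by limma) and Abca3 -0.55 (SE 0.16, adjusted p = 0.142) with PVP, and Abcc10 -0.17 (adjusted p = 0.611) and Tap1 -0.34 (adjusted p = 0.867) with citrate. Among 8 uptake and cation exchange transporters, Slc47a1 (MATE1), a canalicular exporter of organic cations, had -0.39 with citrate (adjusted p = 0.774) and -0.70 with PVP (adjusted p = 0.119). Slc22a7 had 0.61 with citrate (adjusted p = 0.978) and Slco2b1 -0.49 with PVP (adjusted p = 0.127). Of 14 genes that anchor or traffic canalicular pumps, Vps33b had -0.40 with citrate (adjusted p = 0.848) and -0.58 with PVP (adjusted p = 0.186), Rdx, which encodes radixin, -0.15 with citrate (adjusted p = 0.970), and Vipas39 -0.33 with PVP (adjusted p = 0.135).

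Between the sexes these groups held calls. Other transporters higher in females were Abca3 (log2 fold change 0.83, adjusted p = 0.00891 by limma), Abcd2 (3.31, adjusted p = 0.00587), Slco1a4 (2.21, adjusted p = 0.0173), an uptake carrier that is also counted as a PXR and CAR target, and Slc47a1 (0.70, adjusted p = 0.0346). Lower in females were Slco1a1 (-5.02, adjusted p = 0.0243), another uptake carrier, and Abcb10 (-0.50, adjusted p = 0.0415), a mitochondrial transporter. Of the PXR and CAR targets, Cyp2b9 (11.77, adjusted p = 2.26e-07), Cyp2b10 (3.87, adjusted p = 0.00323) and Cyp2a4 (1.78, adjusted p = 0.0109) were higher and Cyp2c55 (-1.37, adjusted p = 0.00318) was lower in females. Of the NRF2 targets, Nqo1 (1.07, adjusted p = 0.00501) was higher and Ugdh (-1.32, adjusted p = 0.00405) and Gstm3 (-1.15, adjusted p = 0.0277) were lower in females. None of the 15 regulators passed for sex. Log2 fold changes lay above 0 for 12 of the 15 (median 0.18), whereas 57.1% of all tested genes lay below 0. At an unadjusted p under 0.05 by limma, 5 regulators were higher in females, as were 6.36% of all tested genes. Their part in the sex differences of the pumps was not examined.

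Acute phase genes and markers of other cells were read beside the coating comparisons. The mean log2 signal of 18 acute phase genes was 14.38 to 15.99 in citrate livers, 14.90 to 17.60 in PVP livers and 14.26 to 14.77 in control livers; 11 of the 18 were higher with PVP at an unadjusted p under 0.05, as were 8.05% of all tested genes, and none at an adjusted one, with Saa2 at 6.80 (SE 1.34, adjusted p = 0.0757 by limma). Log2 fold changes of the 18 lay above 0 for 12 and below 0 for 3 with citrate, and above 0 for 15 and below 0 for 0 with PVP. The rest stood at exactly 0. Orm2, an acute phase gene, was higher in females (3.68, adjusted p = 0.0274). Neutrophil and lymphocyte markers averaged 5.60 to 6.15 in citrate livers, 5.77 to 6.92 in PVP livers and 4.69 to 6.03 in control livers, and stellate cell markers averaged 7.83 to 8.37 in citrate livers, 7.46 to 8.24 in PVP livers and 8.03 to 8.65 in control livers. Kupffer cell markers averaged 8.13 to 9.44 in citrate livers, 8.23 to 10.28 in PVP livers and 7.89 to 8.84 in control livers. Log2 fold changes lay above 0 for 8 of 8 Kupffer cell markers with each coating, and for 6 of 7 neutrophil and lymphocyte markers with citrate and 5 with PVP. Stellate cell markers lay below 0 for 6 of 7 with citrate and 7 with PVP, and endothelial markers for 2 of 7 and 5 of 7. Of all tested genes, 49.6% lay below 0 with citrate and 50.5% with PVP. None of these markers passed at an adjusted p of 0.05 by limma. The part of these genes and markers in the pump values was not tested.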

How the data were processed

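Total RNA of 12 mouse livers was measured on Affymetrix whole-transcript arrays, 1 per mouse; each mouse was a separate animal, placed by its labelled treatment and sex. Signals were on the log2 scale as deposited; per the submitters' processing notes the tools were RMA (robust multi-array average) and, in an unstated order, version 4.0.1.36 of the Transcriptome Analysis Console. The deposited log2 values had a ceiling of 19.93, which no pump gene reached. The genome build and the annotation of these signals are not given in the sources used here, and scanner files were not used here. Precision is limited by how many arrays there were.

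Of 72688 probe sets, 30604 named 1 gene symbol, 2146 named several and 39938 named none, from the platform's own table; 1135 symbols were updated through RefSeq. Testing covered the 19985 genes whose mean signal exceeded 3.93 (log2), the 40th percentile over probe sets. Promoter windows were from RefSeq (GRCm38.p6): 12 windows covered 8 of the 10 pumps, with no window used for Abcc3 and Abcc6.

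Group and sex were fitted with limma 3.58.1 in R 4.3.3 (spread moderated along the mean), two-sided, with a Benjamini-Hochberg adjustment across all tested genes and a threshold of 0.05. Effects within a sex and their difference came from 6 means of group by sex. Correlations used 100000 permutations over 12 livers and exact ones over 6, with SciPy 1.17.1 in Python 3.11.15; figures were drawn with matplotlib 3.10.9. The fit was tested on simulated data. The members and lists were chosen with earlier results of these data known. Named genes were all 10 pumps, 5 regulators, list members past the threshold, otherwise the 2 of smallest p with each coating (given as counts and ranges for most marker lists), and the most similar gene of each pump. Alternatives were other filters, scalings, probe set rules, models and spreads, the quality index, a block for replicate number and each array left out; leaving out arrays within a sex was added after seeing the data.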

Additional observations from a re-analysis of the deposited data

How the results depend on the processing

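Of 1360 values of the 10 pumps under 13 alternatives and with each of 12 arrays left out, 1288 kept their direction and side of the threshold. No pump was called for a coating under any of them; within females, an alternative added after seeing the data, Abcc4 was called for PVP without control replicate 2 (-0.97, adjusted p = 0.0395). In the fits over both sexes, log2 values of the sinusoidal pumps against control stayed below 0. Within a sex some lay above 0, among them Abcc4 in males with citrate (0.06) and with PVP (0.08). The sex call of Abcb1a held in all 12 fits without 1 array (adjusted p 0.00298 to 0.0148), and pumps called for sex numbered 1 to 2, with 1 without control replicate 1, control replicate 3 or citrate replicate 4. With replicate number as a block, genes called for sex numbered 56 against 435 without it. By limma, Abcg2 was then at -1.29 (adjusted p = 0.423) and Abcc4 at 0.82 (adjusted p = 0.0306). Replicate number overlaps with sex here: every replicate 2 mouse was female and every replicate 3 mouse male. Only replicates 1 and 4 held both sexes, so the block takes up much of the sex term. Deviations of same-numbered arrays correlated at -0.44 to 0.23, with 2 of 12 pairs over 0.1, and 1 of 12 arrays was most like one of its own number. With 4 arrays per group and number overlapping with sex, these values cannot decide whether same-numbered mice were handled together. Genes called were 1 for citrate (0 to 6 under the alternatives) and 8 for PVP (0 to 85). Centring arrays moved the median of all genes by -0.10 with PVP, and gave r = 0.578 for Abcb1a and Abcb1b over 12 livers (permutation p adjusted to 0.0674), against 0.672 (0.0317) as deposited and 0.456 without control replicates 4 and 1, the livers farthest from the Abcb1a median. Of the sex calls, 42.8% were higher in females, and 56.1% after quantile normalization. Few mice limit all of these values; the cause of the turned signs below was not tested.

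Signs of log2 values turned as follows. Against control, centring gave -0.013 for Abcb1b with citrate, and quantile normalization -0.085 for Abcc2 with PVP. The quality index as covariate and leaving out the 2 arrays of lowest index gave 0.23 and 0.20 for Abcb4 and 0.37 and 0.31 for Abcg2 with PVP. For PVP minus citrate, they gave 0.57 and 0.65 for Abcb4, -0.15 and -0.063 for Abcc6, 0.21 and 0.25 for Abcg2 and -0.20 and -0.25 for Abcg5; the covariate gave 0.019 for Abcc4, quantile normalization 0.013 for Abcb4 and centring -0.042 for Abcc6. For both coatings averaged, Abcc2 was -0.11 (quantile), -0.039 (centred) and -0.00073 (covariate), and Abcg2 was 0.27 (covariate) and 0.19 (without the 2 arrays). For the citrate effect in females minus that in males, Abcc6 was -0.072 (quantile) and Abcb1b 0.041 (centred).

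With 1 array left out at a time, citrate against control ran between -0.24 and 0.10 for Abcb1a, -0.054 and 0.052 for Abcb1b, -0.20 and 0.0057 for Abcc2, -0.11 and 0.20 for Abcg2, and -0.22 and 0.0073 for Abcg8. PVP against control ran between -0.0023 and 0.23 for Abcc2, -0.48 and 0.047 for Abcg2, -0.24 and 0.15 for Abcg5, and -0.37 and 0.091 for Abcg8. PVP minus citrate ran between -0.44 and 0.41 for Abcb4, -0.13 and 0.31 for Abcc3, -0.15 and 0.0080 for Abcc4, -0.019 and 0.14 for Abcc6, -0.020 and 0.37 for Abcg5, and -0.31 and 0.16 for Abcg8. Both coatings averaged ran between -0.34 and 0.0046 for Abcb1a, -0.088 and 0.018 for Abcb1b, -0.047 and 0.11 for Abcc2, -0.25 and 0.055 for Abcg2, -0.27 and 0.058 for Abcg5, and -0.25 and 0.013 for Abcg8. Within a sex, leaving out each array of the contrast was added after seeing the data. Citrate in females ran between -0.25 and 0.22 for Abcc3, and in males between -0.021 and 0.14 for Abcc4. PVP in females ran between -0.97 and -0.31 for Abcc4, and in males between -0.014 and 0.18. The PVP effect on Abcc3 in females minus that in males ran between -0.20 (without PVP replicate 4) and 0.80.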
